A study of Mus musculus with 15 samples.

Results

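The genes described here are the 4 transcription factors of the TEAD family (Tead1, Tead2, Tead3 and Tead4) and 6 upstream regulators of the Hippo pathway (Nf2, Sav1, Lats1, Lats2, Amotl1 and Amotl2). They were chosen by name and make up 10 of the 20089 complete gene entries analysed. Their RNA was measured in macrophages grown from mouse bone marrow (BMDMs). These precursors become osteoclasts when given RANKL, the cytokine that activates the receptor RANK, and inflammatory macrophages when given lipopolysaccharide (LPS). All cells came from wild-type C57BL/6 mice and were cultured with macrophage colony-stimulating factor (M-CSF), for which the series' design text gives 3 days and the methods' protocol for BMDMs a longer time. The 15 samples fell into 5 groups of 3, namely cells with M-CSF alone (Control), cells given RANKL for 4 h or 3 d, and cells given LPS for 4 h or 3 d. No 3 d culture with M-CSF alone was among them, so time in culture and time under a stimulus cannot be told apart in the 3 d groups. The sources used here do not say whether the 3 samples of a group came from separate animals or cultures, so that p-values measure the spread between these samples, which may be technical.

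In the Hippo pathway, the membrane-linked protein NF2 (merlin) and the scaffold SAV1 help the MST kinases to activate the kinases LATS1 and LATS2, which phosphorylate the co-activators YAP1 and TAZ. Phosphorylated YAP1 is held in the cytoplasm or degraded. Unphosphorylated YAP1 enters the nucleus and binds TEAD proteins, which supply the DNA binding, and the angiomotin-like proteins AMOTL1 and AMOTL2 bind YAP1 and can keep it out of the nucleus. In the macrophage and osteoclast lineage the pathway has been studied for its part in differentiation and in inflammatory activation. Yap1 and Wwtr1, which encode YAP1 and TAZ, were not analysed here.

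Levels are given as FPKM, fragments scaled to transcript length and to sequencing depth, which allows genes of different length to be compared. Fold changes are differences of log2(FPKM + 0.1), a scale that understates the change of genes with low values. A gene was called changed where limma, fitted over all 11743 genes that averaged 0.1 FPKM or more, gave a Benjamini-Hochberg adjusted p under 0.05 together with a fold above 1.5 or below 0.66. Of the 10 genes, 9 passed the filter on low values and Tead4 did not.

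The samples fitted their labels by markers. The macrophage genes Csf1r, Cd68 and Adgre1 were expressed in every sample, 9 of 10 osteoclast genes rose in RANKL 3 d, and 10 of 10 LPS response genes rose in LPS 4 h. The samples had 18306184 to 20330207 fragments on listed genes. They also held RNA of other cell types. The summed level of 18 stromal markers (collagens, Dcn, Pdgfra and others) was 193.7 to 422.7 FPKM in Control, 233.9 to 437.1 in RANKL 4 h, 522.9 to 2400 in RANKL 3 d, 211.1 to 403.0 in LPS 4 h and 156.0 to 642.6 in LPS 3 d. None of these 18 genes was at 0 in a whole group, 11 of them were called higher in RANKL 3 d and none lower, and in LPS 3 d 2 were called higher and 1 lower. Summed endothelial markers reached 3.14 to 19.6 FPKM and epithelial markers 0.122 to 1.92. Of 8 granulocyte markers, 6 fell in RANKL 3 d and 8 in LPS 3 d. Their summed level was 6539 to 19103 FPKM in Control, 6133 to 17230 in RANKL 4 h and 5496 to 17247 in LPS 4 h. It was 1458 to 5605 FPKM in RANKL 3 d and 146.9 to 1662 in LPS 3 d. The part of granulocyte RNA in the 3 d changes was not tested. In such bulk samples fewer cells of a type and less RNA per cell cannot be told apart.

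Promoter sequences are shown for Lats2, Sav1 and Amotl2, since these genes had the largest changes under LPS for 4 h. They come from RefSeq on GRCm38.p6 and run from 250 bases before to 50 bases after the annotated start, in the direction of transcription. Capitals mark the letters GGAATG, the core of the motif that TEAD proteins bind, or CATTCC, the same letters on the other strand. Lats2 has 2 windows, both on the minus strand. The one shown is chr14:57746074-57746373 and holds the motif from position 5 after the start, and the other, chr14:57734369-57734668, holds none. The Sav1 window is chr12:69986953-69987252, minus strand, with the motif 106 bases before the start. The Amotl2 window is chr9:102717554-102717853, plus strand, with the motif 65 bases before the start.
Lats2: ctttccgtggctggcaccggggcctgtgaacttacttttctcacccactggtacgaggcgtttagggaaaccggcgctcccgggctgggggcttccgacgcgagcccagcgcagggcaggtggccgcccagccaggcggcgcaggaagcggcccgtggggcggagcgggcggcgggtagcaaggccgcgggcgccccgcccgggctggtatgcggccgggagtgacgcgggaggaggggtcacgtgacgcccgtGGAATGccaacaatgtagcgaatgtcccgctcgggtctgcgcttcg
Sav1: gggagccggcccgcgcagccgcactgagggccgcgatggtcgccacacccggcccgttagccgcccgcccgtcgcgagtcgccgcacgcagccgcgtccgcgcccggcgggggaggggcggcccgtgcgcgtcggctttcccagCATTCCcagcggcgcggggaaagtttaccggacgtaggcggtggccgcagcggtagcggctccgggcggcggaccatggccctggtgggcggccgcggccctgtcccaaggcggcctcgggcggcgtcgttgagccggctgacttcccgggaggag
Amotl2: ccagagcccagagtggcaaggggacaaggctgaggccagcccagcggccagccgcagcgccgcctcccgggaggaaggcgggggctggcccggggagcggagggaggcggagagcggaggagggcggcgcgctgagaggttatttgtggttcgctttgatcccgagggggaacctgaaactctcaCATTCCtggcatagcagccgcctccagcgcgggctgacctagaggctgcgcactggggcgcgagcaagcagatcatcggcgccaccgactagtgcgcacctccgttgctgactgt

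Windows were found for 8 of the 10 genes, and not for Tead1 and Tead4. The motif, searched on both strands as GGAATG, lay in at least 1 window of 4 of these 8 genes, the 3 shown and Tead3. Of the 27025 genes with a window, 16.6% held it in at least 1 window, and so did 14.7% of all 32851 windows. These matches are letters in a window and say nothing of binding.

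Sav1, the scaffold of the MST and LATS kinases, had the highest level of the 10 genes. Mean levels over the 15 samples were 37.1 FPKM for Sav1, 12.3 for Nf2, 8.68 for Lats2, 7.84 for Lats1 and 3.20 for Amotl2. Amotl1 at 0.704 FPKM and the TEAD genes at 0.915 (Tead1), 0.766 (Tead2), 0.535 (Tead3) and 0.0694 (Tead4) lay below 1 FPKM. Lats2, the least deeply read of Sav1, Nf2 and the LATS kinases, still had 385 to 1869 fragments per sample, whereas the TEAD genes had 1 to 530, so the TEAD values carry more counting error.

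**Figure D1:**
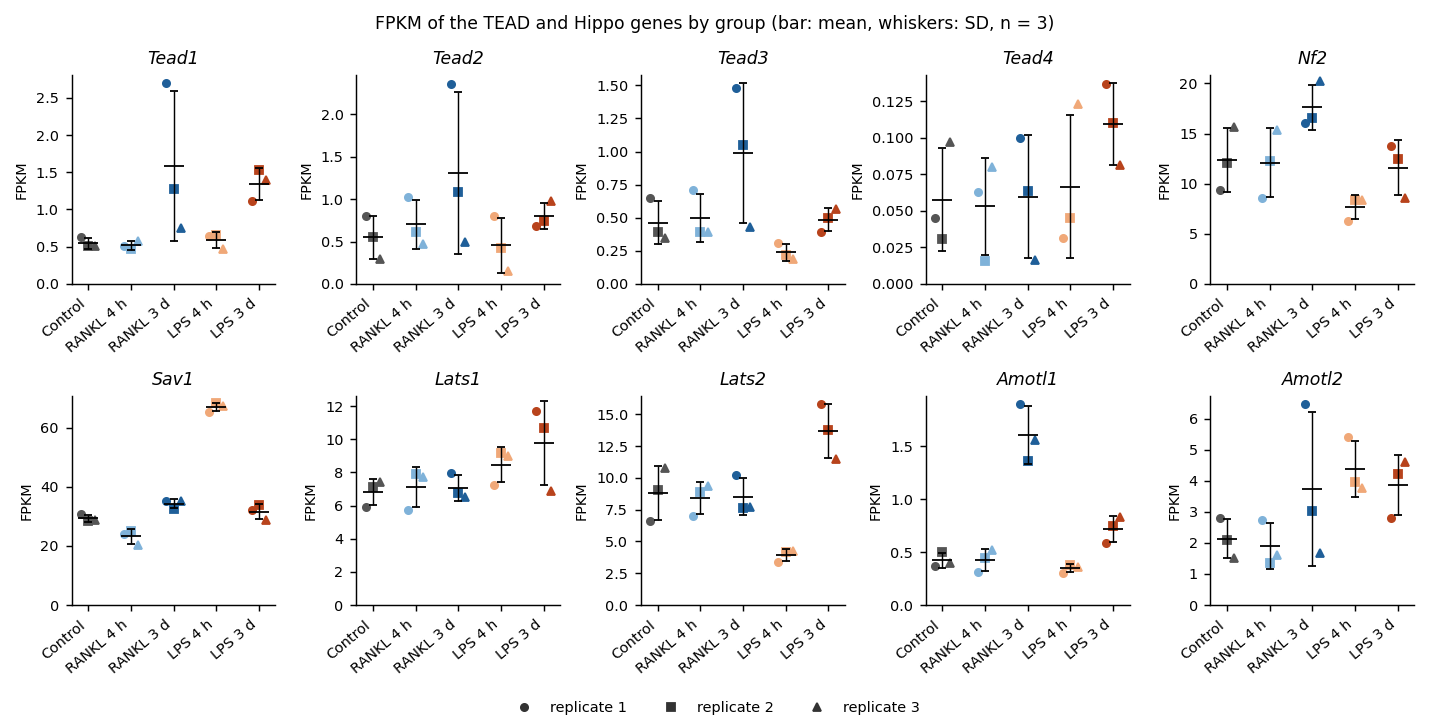
FPKM of each of the 10 genes (vertical axes, each from 0) in the 5 groups (horizontal axes), with a point per sample, its shape giving the replicate number, a bar at the mean and whiskers of 1 SD (n = 3). Sav1 stands at 65.4 to 68.3 in LPS 4 h against 20.4 to 35.2 elsewhere, Lats2 is lowest in LPS 4 h and highest in LPS 3 d, and Amotl1 is highest in RANKL 3 d.

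Under LPS for 4 h the genes called were all upstream regulators, and no TEAD gene was called. Of the 9 genes tested, 4 were called, Sav1 and Amotl2 higher and Lats2 and Nf2 lower. Among all genes tested, 48.1% were called in this comparison, 8.43% higher and 39.7% lower, so that the share of the 9 genes called was near that of all genes. The median gene fell by 0.52 on the log2 scale in LPS 4 h, and the median of the 9 genes was -0.22. After centring of samples on their median gene, 55.0% of the called genes were higher, in place of 17.5%.

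Sav1 had 30.7, 28.5 and 28.7 FPKM in the 3 Control samples and 65.4, 68.3 and 67.3 FPKM in the 3 LPS 4 h samples. Every LPS 4 h sample was above every other sample of the study, and the SD of the 3 values was 1.47 FPKM. The rise was 1.19 ± 0.10 on the log2 scale (SE, n = 3 per group, adjusted p = 5.66e-07 from limma), a 2.28-fold higher level. By 3 d under LPS, Sav1 was at 32.1, 33.9 and 28.8 FPKM, overlapping Control (0.11 ± 0.10, adjusted p = 0.424). The difference between LPS 3 d and LPS 4 h was called (-1.08 ± 0.10, adjusted p = 9.15e-07).

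Lats2, the LATS kinase that is itself a known target of YAP and TEAD, moved the other way. Its level was 6.61, 9.03 and 10.8 FPKM in Control and 3.38, 4.14 and 4.25 FPKM in LPS 4 h. The groups did not overlap, which held for 66.8% of all genes in this comparison. Lats2 fell by 1.13 (SE 0.20, adjusted p = 2.72e-04 from limma). After centring on the median gene, the fall was -0.56 with an adjusted p of 0.0119, which no longer passed the fold threshold. At 3 d under LPS the order turned, with 15.8, 13.8 and 11.5 FPKM, all above Control (0.64 ± 0.20, adjusted p = 0.0213). LPS 3 d stood 1.77 ± 0.20 above LPS 4 h (adjusted p = 4.05e-06), the largest called difference of any of the 9 genes in the 8 comparisons, and it was called in every alternative run. The rise over Control rested on single samples. It was not called without Control replicate 1 (0.45, adjusted p = 0.10), LPS 3 d replicate 1 (0.54, adjusted p = 0.0903) or LPS 3 d replicate 2 (0.63, adjusted p = 0.0603).

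Lats1, the other LATS kinase, had 5.90, 7.13 and 7.41 FPKM in Control and 7.23, 9.14 and 8.99 FPKM in LPS 4 h. The groups overlapped, and the change was 0.31 ± 0.20 (adjusted p = 0.197 from limma). Relative to the median gene, Lats1 stood 0.87 higher in LPS 4 h (adjusted p = 5.78e-04), and that value was called. After 3 d of LPS it had 11.7, 10.7 and 6.90 FPKM, with replicate 3 inside the Control range (0.48 ± 0.20, adjusted p = 0.0714). Without LPS 3 d replicate 3 the value was 0.71 and was called (adjusted p = 0.00499).

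The ratio of the 2 kinases does not depend on the scaling between samples, apart from the 0.1 FPKM added to each. The log2 ratio of Lats2 to Lats1 was 0.16, 0.34 and 0.54 in Control and -1.07, -1.13 and -1.06 in LPS 4 h, so that Lats2 was the higher of the pair in all 3 Control samples and the lower in all 3 LPS 4 h samples. The difference of -1.43 had p = 0.1 in a two-sided exact permutation test, which 3 against 3 samples cannot go below (adjusted p = 0.4 over 8 ratio comparisons). Means in the other groups were 0.25 ± 0.06 in RANKL 4 h, 0.26 ± 0.09 in RANKL 3 d and 0.51 ± 0.19 in LPS 3 d (SD, n = 3), and their values overlapped those of Control. Removing any 1 sample left the LPS 4 h difference between -1.53 and -1.34.

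Nf2, which encodes merlin at the membrane end of the pathway, had 9.34, 12.1 and 15.7 FPKM in Control and 6.31, 8.41 and 8.35 FPKM in LPS 4 h. All 3 LPS 4 h values were below all 3 Control values, and Control itself varied by 3.19 FPKM (SD). The fall of 0.66 on the log2 scale (SE 0.24, adjusted p = 0.0304 from limma) followed that of the median gene. After centring on it, the value was -0.09 (adjusted p = 0.765). The call was also lost without Control replicate 2 (-0.66, adjusted p = 0.0653), Control replicate 3 (-0.47, adjusted p = 0.137) or LPS 4 h replicate 1 (-0.52, adjusted p = 0.114). After 3 d of LPS Nf2 had 13.8, 12.5 and 8.55 FPKM, within and just below the Control range (-0.09 ± 0.24, adjusted p = 0.806).

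The angiomotin-like genes differed from each other under LPS. Amotl2 had 2.80, 2.11 and 1.52 FPKM in Control and 5.42, 3.95 and 3.77 FPKM in LPS 4 h, with no overlap (1.02 ± 0.41, adjusted p = 0.0428 from limma). The call is a narrow one. Without Control replicate 1 the value was 1.22 (adjusted p = 0.0338), but without Control replicates 2 or 3 it was 1.03 (adjusted p = 0.0823) or 0.80 (adjusted p = 0.149), and without LPS 4 h replicates 1, 2 or 3 it was 0.86 (adjusted p = 0.130), 1.08 (adjusted p = 0.0669) or 1.11 (adjusted p = 0.0606). After 3 d of LPS Amotl2 had 2.79, 4.21 and 4.61 FPKM, overlapping Control at its highest value (0.83 ± 0.41, adjusted p = 0.125).

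Amotl1 had 0.373, 0.501 and 0.395 FPKM in Control and 0.305, 0.378 and 0.358 FPKM in LPS 4 h (-0.22 ± 0.22, adjusted p = 0.408 from limma). It had 0.583, 0.743 and 0.833 FPKM in LPS 3 d, all above Control, and was called (0.64 ± 0.22, adjusted p = 0.0365). The LPS 3 d call was lost without Control replicate 1 (0.58, adjusted p = 0.111) or 3 (0.61, adjusted p = 0.0907) and without LPS 3 d replicate 2 (0.62, adjusted p = 0.0982) or 3 (0.55, adjusted p = 0.0778). The log2 ratio of Amotl2 to Amotl1 was 2.61, 1.88 and 1.71 in Control and 3.77, 3.08 and 3.08 in LPS 4 h. It rose by 1.24 (p = 0.1 by the same exact test, adjusted p = 0.4).

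**Figure D2:**
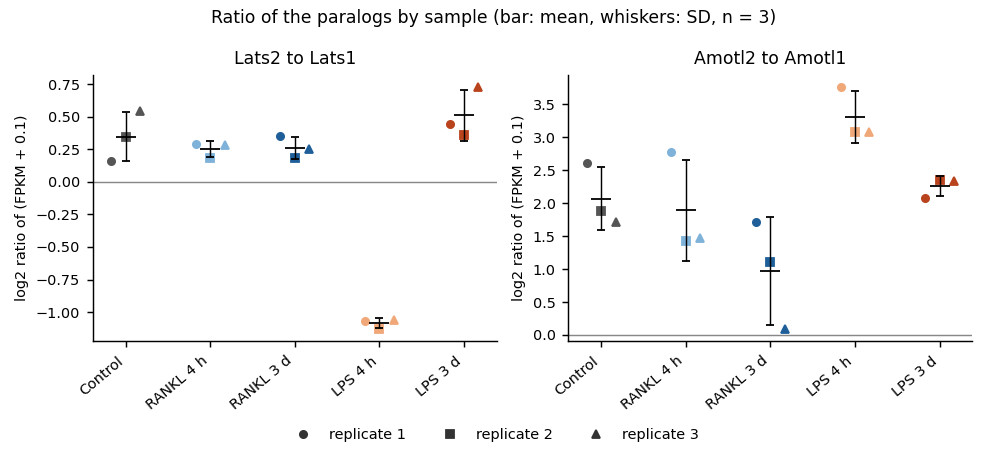
Log2 ratio of Lats2 to Lats1 (left) and of Amotl2 to Amotl1 (right), each of FPKM + 0.1, by group, with a point per sample, a bar at the mean and whiskers of 1 SD (n = 3). The Lats2 to Lats1 ratio lies between -1.13 and -1.06 in LPS 4 h and above 0 in all other samples, and the Amotl2 to Amotl1 ratio is highest in LPS 4 h and lowest in RANKL 3 d.

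In RANKL 3 d the genes called were Amotl1 and Tead1, and both were called higher in LPS 3 d as well. Of the 9 genes tested, 2 were called, both higher, where 24.2% of all genes were called in this comparison and 16.6% called higher. The median change was 0.60 over the 9 genes and 0.16 over all genes tested. As elsewhere in the 8 comparisons, the share of the 9 genes called was close to or below that of all genes or, in LPS 3 d, a little above it. Lats1 had 7.97, 6.73 and 6.49 FPKM in RANKL 3 d and overlapped Control, as did Lats2. Their changes were 0.05 ± 0.20 for Lats1 (95% interval -0.37 to 0.48) and -0.03 ± 0.20 for Lats2 (95% interval -0.46 to 0.39).

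Amotl1 had 1.90, 1.36 and 1.56 FPKM in the 3 RANKL 3 d samples, against 0.373, 0.501 and 0.395 in Control. No other sample of the study exceeded 0.833 FPKM. The rise was 1.70 ± 0.22 on the log2 scale (SE, n = 3 per group, adjusted p = 1.36e-04 from limma), a 3.25-fold higher level, and it was called in all alternatives that kept the gene. Without any 1 sample it lay between 1.58 and 1.81. RANKL 3 d also exceeded LPS 3 d for Amotl1 (1.06 ± 0.22, adjusted p = 0.00163), a comparison in which 2 of the 9 genes and 36.1% of all genes were called. The third member of the family, Amot, which was named after its values were seen, had 1.45, 0.888 and 1.10 FPKM in RANKL 3 d and 0.288, 0.349 and 0.395 in Control (1.47 ± 0.24, adjusted p = 6.63e-04). Unlike Amotl2, it fell in LPS 4 h (-0.93 ± 0.24, adjusted p = 0.00459), where the median gene fell by 0.52. An Amot value centred on the median gene is not given here. Its LPS 4 h levels of 0.117, 0.155 and 0.124 FPKM were close to the 0.1 FPKM added to each value.

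Amotl2 itself had 6.48, 3.04 and 1.67 FPKM in RANKL 3 d. Replicate 3 lay within the Control range, and the change of 0.60 ± 0.41 was not called (adjusted p = 0.272 from limma). The log2 ratio of Amotl2 to Amotl1 was 1.71, 1.11 and 0.09 in RANKL 3 d, a mean 1.10 below that of Control in which replicate 1 equalled the lowest Control value (two-sided exact permutation test, p = 0.2). The difference was -0.66 without RANKL 3 d replicate 3 and -0.39 with a pseudocount of 1.

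Tead1 was the TEAD gene with the clearest change. Its level was 0.630, 0.504 and 0.508 FPKM in Control, 2.70, 1.28 and 0.754 in RANKL 3 d, and 1.11, 1.53 and 1.39 in LPS 3 d. All 6 samples at 3 d were above all 9 others, where the highest value was 0.654 FPKM. The rise was 1.21 ± 0.33 in RANKL 3 d (adjusted p = 0.0142 from limma) and 1.15 ± 0.33 in LPS 3 d (adjusted p = 0.0154). Both comparisons share the Control samples, and the difference between the 2 stimuli was 0.05 ± 0.33 (95% interval -0.66 to 0.76, adjusted p = 0.911). Without RANKL 3 d replicate 1, the rise under RANKL was 0.75 (adjusted p = 0.0477), and fitted on the 2 groups alone it was not called (adjusted p = 0.0691). Without LPS 3 d replicate 2, the rise under LPS was 1.06 and was not called (adjusted p = 0.0577).

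Tead2 and Tead3 varied widely between the samples of a group. Tead2 had 0.802, 0.553 and 0.295 FPKM in Control, 2.36, 1.08 and 0.494 in RANKL 3 d, 0.796, 0.422 and 0.150 in LPS 4 h, and 0.681, 0.748 and 0.976 in LPS 3 d. Its values overlapped those of Control in each of these groups, and the change was 0.97 ± 0.52 in RANKL 3 d (adjusted p = 0.176 from limma) and 0.54 ± 0.52 in LPS 3 d (adjusted p = 0.445). Tead3 had 0.651, 0.390 and 0.349 FPKM in Control, 1.48, 1.05 and 0.429 in RANKL 3 d, 0.308, 0.217 and 0.188 in LPS 4 h, and 0.391, 0.501 and 0.567 in LPS 3 d. Its change was 0.85 ± 0.37 in RANKL 3 d (adjusted p = 0.0940), and 1.30 with a call when replicate 3 of that group was left out (adjusted p = 0.0115). Without replicate 1 of that group it was 0.51 and not called (adjusted p = 0.332). In LPS 4 h all 3 Tead3 values, from 12 to 19 fragments, lay below Control, with a change of -0.72 ± 0.37 (adjusted p = 0.108).

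Tead4 was barely detected. It had 1 to 9 fragments per sample in the whole study, with 0.0305 to 0.0975 FPKM in Control and 0.0814 to 0.137 FPKM in LPS 3 d. A difference between groups was not detectable at this depth.

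Of the summed FPKM of the 4 TEAD genes, Tead1 made up 34.8% ± 5.54 in Control, 40.6% ± 3.93 in RANKL 3 d and 49.0% ± 3.55 in LPS 3 d (SD, n = 3), and the LPS 3 d samples, at 46.1% to 53.0%, lay above the Control samples, at 29.6% to 40.6%. Tead3 made up 28.3% ± 2.11 in Control, 17.9% ± 2.09 in LPS 4 h and 17.6% ± 1.02 in LPS 3 d. Tead2 held 29.2% to 39.0% on average in the 5 groups. The Tead3 shares of both LPS groups, at 16.2% to 20.2%, lay below those of Control, at 26.4% to 30.6%. In RANKL 3 d the shares of Tead1, Tead2 and Tead3 overlapped those of Control.

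Within each group the samples had the same order by TEAD sum as by stromal sum, apart from replicates 2 and 3 of RANKL 4 h. Between groups the 2 sums did not always go together. The TEAD sum was 6.64, 3.48 and 1.69 FPKM in the 3 RANKL 3 d samples, whose stromal sums were 2400, 1088 and 522.9 FPKM. The TEAD sum was 2.32, 2.89 and 3.02 FPKM in LPS 3 d, beside stromal sums of 156.0, 172.0 and 642.6. LPS 3 d replicates 1 and 2 were therefore above every Control sample in the TEAD sum, at 1.25 to 2.13 FPKM, and below every Control sample in the stromal sum. The stromal markers did not go 1 way in these replicates. Col1a1, at 27.2 and 24.0 FPKM, was below all Control samples. Dcn, at 3.86 and 6.14, and Thy1, at 4.22 and 8.03, were above all of them. Over the 18 markers the median change in LPS 3 d was 0.31, against 0.08 over all genes, with 2 called higher and 1 lower. Sorted from high to low, 15 of 18 stromal genes ran from replicate 1 through 2 to 3 in Control, 17 of 18 in RANKL 3 d and 14 of 18 in LPS 4 h, and Tead2, Tead3 and Amotl2 had that order in all 3 of these groups. Tead1, Tead4 and Lats1 had it in RANKL 3 d as well, so that 6 of the 10 genes did in that group. In RANKL 4 h 15 of 18 stromal genes had it, and Tead2 was the single one of the 10 genes that did. In LPS 3 d, 9 of 18 stromal genes ran from replicate 3 through 2 to 1, as did Tead2, Tead3, Amotl1 and Amotl2. Amotl1 did not have the stromal order in the other 4 groups. Its RANKL 3 d rise was 1.58 without replicate 1, the sample with the highest stromal sum (adjusted p = 8.77e-04 from limma), but the stromal sums of the 2 samples left also exceeded those of Control. The part of stromal RNA in the rises of Amotl1, Tead1 and the other TEAD genes was not tested.

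**Figure D3:**
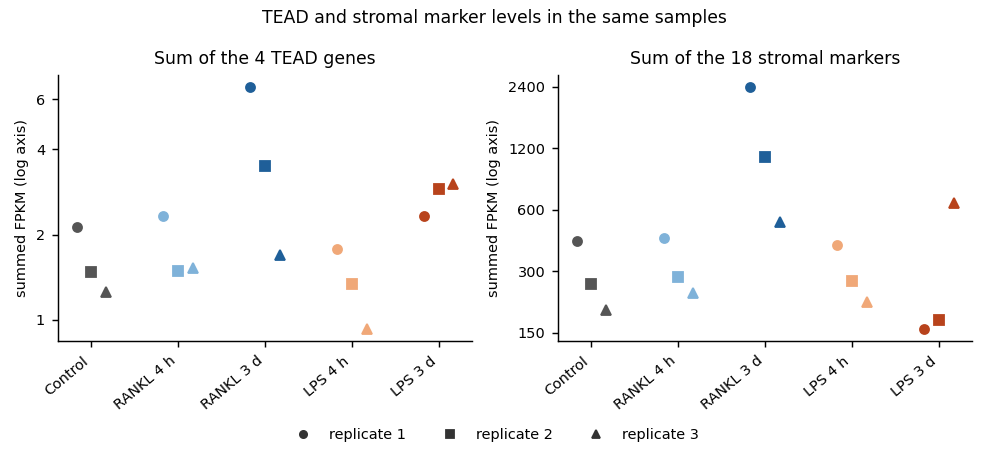
Summed FPKM of the 4 TEAD genes (left) and of 18 stromal markers (right) on log axes, a point per sample with its shape giving the replicate number. In RANKL 3 d both sums are highest in replicate 1 and lowest in replicate 3, and in LPS 3 d replicates 1 and 2 have high TEAD sums, 2.32 and 2.89, beside the lowest stromal sums, 156.0 and 172.0.

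Nf2 and Sav1 were not called at 3 d under either stimulus. Nf2 had 16.1, 16.6 and 20.2 FPKM in RANKL 3 d, all above Control, which held for 4 of the 10 genes and for 49.1% of all genes. Its change of 0.53 ± 0.24 was not called (adjusted p = 0.112 from limma). Sav1 had 35.2, 32.5 and 35.2 FPKM in RANKL 3 d, a change of 0.23 ± 0.10 (adjusted p = 0.101).

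In LPS 3 d, Tead1, Lats2 and Amotl1 were called higher than in Control. They were 3 of the 9 genes, where 27.4% of all genes were called and 13.0% called higher. None of the 9 genes was called lower, as 14.4% of all genes were. The median was 0.54 over the 9 genes and 0.08 over all genes tested. The values of these 3 genes are given above, and each call was lost when at least 1 of the 6 samples compared was left out. Under centring on the median gene Lats2 and Amotl1 each stood at 0.56 and were not called, whereas Tead1 remained called.

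**Figure D4:**
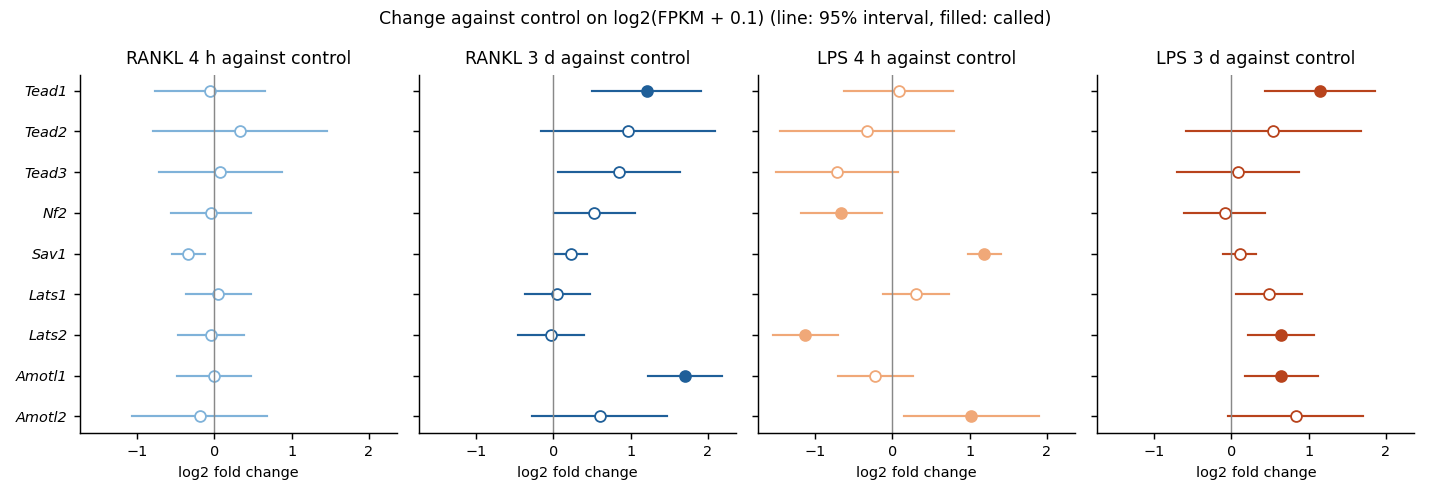
Log2 fold change against Control of the 9 genes tested (vertical axis) in the 4 comparisons (panels), on the scale of log2(FPKM + 0.1), with the 95% interval as a line and a filled point where the gene was called. No gene is called in RANKL 4 h, 2 in RANKL 3 d, 4 in LPS 4 h and 3 in LPS 3 d.

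RANKL for 4 h called none of the 9 genes by limma, and 14 of all genes, 0.119%. At an unadjusted p under 0.05 with the fold thresholds, 0 of the 9 and 2.56% of all genes passed. At an unadjusted p under 0.05 alone 4.96% of all genes passed and so did Sav1, with 24.1, 25.2 and 20.4 FPKM below the 28.5 to 30.7 FPKM of Control (-0.34 ± 0.10, adjusted p = 0.435 from limma). It was the single gene of the 10 whose RANKL 4 h and Control samples did not overlap, as 10.8% of all genes did not. In the other genes the RANKL 4 h samples overlapped those of Control, with 8.55, 12.3 and 15.4 FPKM for Nf2, 5.71, 7.88 and 7.70 for Lats1, 7.03, 8.92 and 9.39 for Lats2, 0.313, 0.440 and 0.522 for Amotl1, 2.73, 1.35 and 1.62 for Amotl2, 0.511, 0.465 and 0.580 for Tead1 and 1.03, 0.618 and 0.470 for Tead2. The intervals of these changes leave room for changes of moderate size. They ran from -0.37 to 0.47 for Lats1, from -0.47 to 0.38 for Lats2 and from -0.79 to 1.46 for Tead2.

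Set directly against each other at 4 h, RANKL and LPS differed in 4 of the 9 genes, where 50.0% of all genes differed. Sav1 was lower under RANKL (-1.53 ± 0.10, adjusted p = 6.40e-08 from limma) and so was Amotl2 (-1.21 ± 0.41, adjusted p = 0.0193). Lats2 (1.08 ± 0.20, adjusted p = 3.53e-04) and Nf2 (0.62 ± 0.24, adjusted p = 0.040) were higher. Centred on the median gene, Nf2 stood at 0.05 (adjusted p = 0.876) and Lats2 at 0.52 (adjusted p = 0.0184), neither of them called. Lats1, not called before centring (-0.26, adjusted p = 0.278), then stood at -0.82 and was called (adjusted p = 8.26e-04). Without single samples Nf2 was not called in 5 of 6 cases, the samples being LPS 4 h replicate 1 (0.48, adjusted p = 0.141), 2 (0.69, adjusted p = 0.0507) and 3 (0.68, adjusted p = 0.0544) and RANKL 4 h replicate 2 (0.58, adjusted p = 0.0968) and 3 (0.42, adjusted p = 0.174). Amotl2 was not called without LPS 4 h replicate 1 (-1.05, adjusted p = 0.0694) or RANKL 4 h replicates 2 (-1.0, adjusted p = 0.0781) or 3 (-1.13, adjusted p = 0.0560). With the replicate number as a block, Tead3 was called as well (0.80, adjusted p = 0.0416), from 0.710, 0.389 and 0.394 FPKM in RANKL 4 h against 0.308, 0.217 and 0.188 in LPS 4 h.

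At 3 d the 2 stimuli differed in Lats2 and Amotl1. Lats2 had 10.2, 7.65 and 7.70 FPKM in RANKL 3 d, all below the 11.5 to 15.8 FPKM of LPS 3 d (-0.68 ± 0.20, adjusted p = 0.0123 from limma). That call was lost without LPS 3 d replicate 1 (-0.57, adjusted p = 0.0574). Nf2 was 0.62 ± 0.24 higher under RANKL with an adjusted p of 0.0517, just short of the threshold. In the change from 4 h to 3 d, 2 of the 9 genes were called under RANKL, Tead1 (1.27 ± 0.33, adjusted p = 0.0116) and Amotl1 (1.71 ± 0.22, adjusted p = 1.28e-04), where 23.3% of all genes were called. Leaving out RANKL 3 d replicate 3 brought that count to 4, with Tead3 (1.22, adjusted p = 0.0165) and Amotl2 (1.25, adjusted p = 0.0317) added. Without RANKL 3 d replicate 1, Tead3 was 0.43 (adjusted p = 0.421) and Amotl2 0.30 (adjusted p = 0.571). Under LPS 4 of the 9 genes were called, where 58.1% of all genes were called. These were Sav1 and Lats2 as given above, Tead1 (1.07 ± 0.33, adjusted p = 0.0109) and Amotl1 (0.87 ± 0.22, adjusted p = 0.00340), and the last pair was not called after centring (0.42, adjusted p = 0.291, and 0.22, adjusted p = 0.413).

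The rest of the pathway was read from a list of 45 other genes, of which 40 were in the table and 36 were tested. The list holds Hippo genes and also Trim46, a ubiquitin ligase gene described below. In RANKL 4 h none of the list was called, where 0.119% of all genes were. In RANKL 3 d, 8 rose and 1 fell, the latter being Trim46. Among all genes 24.2% were called in that comparison and 16.6% called higher. The median was 0.31 over the list against 0.16 over all genes. The rises included Frmd6, a relative of merlin (2.18 ± 0.389 to 6.87 ± 1.93 FPKM, SD, n = 3, log2 1.59, adjusted p = 6.97e-04 from limma). The MAP4K kinases, which can activate LATS in parallel to MST, were represented by Mink1 (18.8 ± 0.365 to 36.6 ± 3.6 FPKM, log2 0.95, adjusted p = 2.00e-04) and Map4k5 (log2 0.81, adjusted p = 0.00642). Map4k4, named in this comparison after its values were seen, rose as well (log2 0.76, adjusted p = 0.00260).

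In LPS 4 h, 3 of these 36 genes rose and 10 fell, Trim46 among the latter. Of all genes 8.43% were called higher and 39.7% lower in this comparison. The list median was -0.42 against -0.52 over all genes, so the falls are not set apart from those of all genes. Frmd6 (1.24, adjusted p = 0.00124 from limma), Map4k4 (0.76, adjusted p = 8.25e-04) and the LATS cofactor gene Mob1b (0.67, adjusted p = 0.0151) rose. Among those that fell were Rassf5, which binds the MST kinases (15.5 ± 1.25 to 4.38 ± 0.535 FPKM, SD, n = 3, log2 -1.81, adjusted p = 1.07e-05), Map4k1 (-1.60, adjusted p = 3.67e-04), the LATS-binding LIM gene Ajuba (-1.27, adjusted p = 0.00399) and Mink1 (-1.16, adjusted p = 8.02e-06). Mink1 thus rose in RANKL 3 d and fell in LPS 4 h. In LPS 3 d, 6 rose, Trim46 among them, and 3 fell (list median 0.26, all genes 0.08). Of all genes 13.0% were called higher and 14.4% lower there. Map4k5, Map4k4, Mob1b and Limd1 rose by 0.70 to 0.92, and Map4k1 (-1.87), Rassf5 (-1.14) and Map4k2 (-0.95) fell, with adjusted p from 3.05e-04 to 0.0289.

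Trim46, which encodes a ubiquitin ligase that the study examines beside YAP1, had 0.591 ± 0.107 FPKM in Control (SD, n = 3). It was lower in RANKL 3 d, at 0.210 to 0.433 FPKM (-0.83 ± 0.25, adjusted p = 0.0213 from limma), and in LPS 4 h, at 0.234 to 0.349 FPKM (-0.78 ± 0.25, adjusted p = 0.0146). In LPS 3 d it was higher, at 0.862 to 1.08 FPKM (0.69 ± 0.25, adjusted p = 0.0437). The median gene itself fell by 0.52 in LPS 4 h, and a Trim46 value centred on it is not given here. Its levels were low, at most 1.08 FPKM in any sample.

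Of 20 listed target genes of YAP and TEAD, 18 were tested. In RANKL 3 d, 6 rose and 2 fell, with a list median of 0.82 against 0.16 over all genes. Of all genes 24.2% were called in that comparison and 16.6% called higher. Dock5, an exchange factor for Rac with a known role in osteoclasts (3.20 ± 1.16 to 18.8 ± 6.75 FPKM, SD, n = 3, log2 2.51, adjusted p = 4.51e-05 from limma), Ccdc80 (1.89, adjusted p = 0.0122), Tgfb2 (1.83, adjusted p = 0.0224) and Asap1 (0.79, adjusted p = 0.0125) were among those that rose. Gadd45a, a stress response gene (-1.74, adjusted p = 0.00521), and the receptor kinase gene Axl (-0.76, adjusted p = 0.0218) fell. The 2 best-known targets, Ccn1 and Ccn2, had changes of 0.96 ± 0.42 (adjusted p = 0.0997) and 1.0 ± 0.47 (adjusted p = 0.121) that were not called.

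In LPS 4 h 2 targets rose and 1 fell (list median -0.03, all genes -0.52), where 8.43% of all genes were called higher and 39.7% lower. F3, the gene for tissue factor, rose by 3.09 on the log2 scale (1.27 ± 0.812 to 10.9 ± 4.38 FPKM, SD, n = 3, adjusted p = 1.30e-04 from limma), Gadd45a rose by 1.53 (adjusted p = 0.00459), and the kinase gene Nuak2 fell by 0.98 (adjusted p = 6.48e-04). In LPS 3 d 5 rose and 1 fell (list median 0.44, all genes 0.08), where 13.0% of all genes were called higher and 14.4% lower. F3 (3.30, adjusted p = 2.21e-04), Ankrd1 (1.83, adjusted p = 0.0233), Ccn2 (1.38, adjusted p = 0.0342) and Crim1 (0.71, adjusted p = 0.0442) rose and Axl fell by 1.78 (adjusted p = 7.70e-05). Many of these targets are also expressed by stromal cells, and the part of stromal RNA in their values was not tested.

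**Figure D5:**
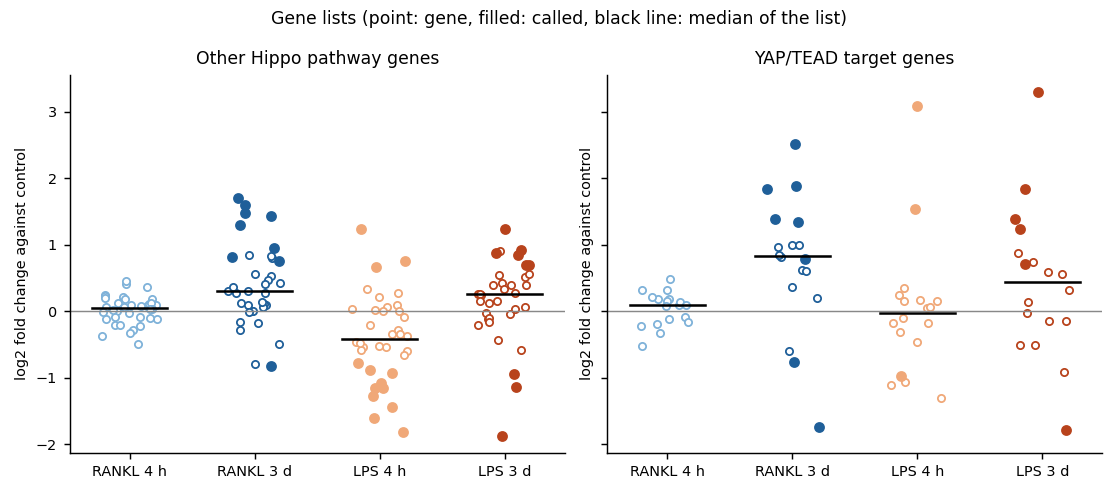
Log2 fold change against Control of the 36 tested genes of the Hippo list, which also holds Trim46 (left), and the 18 YAP and TEAD target genes tested (right) in the 4 treated groups, with a point per gene, filled where called, and a black line at the median of the list. The Hippo list has 8 genes called higher and 1 lower in RANKL 3 d and 3 higher and 10 lower in LPS 4 h, where its median of -0.42 lies near the -0.52 of all genes. Of all genes 8.43% were called higher and 39.7% lower in LPS 4 h.

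Genes with the most similar pattern were sought by Pearson's r of log2(FPKM + 0.1) over the 15 samples, among 9486 genes, as a description. The 15 samples share 5 groups and their stromal content, so that high values are common. For Tead1 they were Palld, Lamb1 and Cald1 (r = 0.946 to 0.948), for Tead2 Fhl2, Mxra8 and Fads3 (0.938 to 0.960) and for Tead3 Podnl1, Fkbp14 and Fads3 (0.933 to 0.952). For Amotl1 they were Calu, P4ha2 and Rgs11 (0.961 to 0.983), and for Amotl2 Osmr, Pla1a and Timp1 (0.887 to 0.922). The regulators had other neighbours, namely Inpp5e, Mettl7a1 and Mau2 for Lats2 (0.982 to 0.983), Tm9sf4, Dr1 and Irs2 for Lats1 (0.905 to 0.938), Ppm1k, Lcp2 and Sdc4 for Sav1 (0.956 to 0.967), and Tcf12, Atf6 and Cep295 for Nf2 (0.958 to 0.974).

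On GRCm38 with GENCODE M21, Tead1 lies on chromosome 7 from 112679318 to 112906807 (plus strand), Lats1 on chromosome 10 from 7681214 to 7716460 (plus strand), Amotl1 on chromosome 9 from 14541966 to 14645056 (minus strand) and Nf2 on chromosome 11 from 4765845 to 4849536 (minus strand). Exons of 3 of the 10 genes overlap exons of another gene. They are Tead2 with Cd37 on the other strand, Sav1 with Atl1 on the other strand, and Lats2 with Gm49361 on the same strand. Whether the counting used strand is not given in the sources used here, and fragments in these overlaps could be assigned to either gene. Cd37 had 59.2 to 75.3 FPKM in Control and 40.6 to 42.3 FPKM in LPS 4 h, and Tead2 less than 3 FPKM in all samples. Atl1 had 0.0692 to 0.184 FPKM in LPS 4 h, far below the 65.4 to 68.3 FPKM of Sav1. No level of Gm49361 is given here, and its part in the Lats2 values was not tested.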

How the data were processed

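RNA-seq of BMDMs was analysed in 15 samples, 3 per group, with groups and replicate numbers taken from the sample labels. The values are FPKM as the authors deposited them. The methods name StringTie and Ballgown for this step. Their processing notes name GRCm38.p4 and mm10. The aligner, the annotation and the use of strand are not given in the sources used here, and neither is whether same-numbered samples share an animal. All 15 columns of FPKM were used. The table gave 20089 complete entries. An incomplete one (Ttk) and genes after it in the alphabet, among them Yap1, Wwtr1, Wwc1, Wwc2 and Vgll4, were not analysed here.

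FPKM + 0.1 was log2-transformed and fitted with limma 3.58.1 in R 4.3.3 (lmFit, then eBayes with a variance trend, 5 groups in a single fit) for genes averaging 0.1 FPKM or more, since FPKM do not suit a count model. The fold thresholds follow the study's methods, where the authors used edgeR with unadjusted p. Fragment numbers were recovered from the steps of the FPKM values for 14485 genes and were used in limma voom as an alternative. A step was accepted only where it left every value of a gene near a whole number. That 100% of values lay within 0.01 of a whole number was therefore set by the method. Amplified fragments need not be separate molecules, so these numbers reflect counting error only. The steps were tested on simulated data. The recovery was exact for 3945 of 3945 genes, and for RANKL 3 d against control the fit called 60 of 100 genes changed by a log2 of 1, 91 of 100 changed by 2 and 4 of 11543 unchanged ones. Paralog ratios were compared by two-sided exact permutation tests. Tables and figures were made in Python 3.11.15 (pandas 2.3.3, numpy 2.4.6, scipy 1.17.1, matplotlib 3.10.9).

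The genes and lists were chosen with earlier results of these data known. Beside the 10 genes, the text names the called genes of the pathway and target lists with a mean of at least 1 FPKM, up to 4 per list, direction and comparison with control, and Trim46, Ccn1 and Ccn2 throughout. A gene that this rule would name is not reported here. Ccn1 and Ccn2 are listed in the table under the older names Cyr61 and Ctgf. The replicate numbers were taken to pair samples where the deviations of same-numbered samples from their group means correlated over 0.1 in all 3 pairs, over 9486 genes. That held for 5 comparisons, with lowest values of 0.71 (RANKL 4 h against control), 0.14 (RANKL 3 d against control), 0.44 (LPS 4 h against control), 0.55 (RANKL 4 h against LPS 4 h) and 0.16 (RANKL 3 d against RANKL 4 h), and not for the other 3 (-0.03, -0.23 and -0.15). Differently numbered samples reached 0.26 in RANKL 3 d against control and 0.21 in RANKL 3 d against RANKL 4 h, above those lowest values, and at most -0.02 in the 3 comparisons at 4 h. Alternatives covered the pseudocount (1 and 0.01), the filter, the scaling, the groups fitted, the variance trend, the replicate block, the thresholds and leaving out each replicate.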

Additional observations from a re-analysis of the deposited data

Results flagged for a closer look

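Called differences between the 2 stimuli at the same time, or between the 2 times of a stimulus, are collected here as values of log2(FPKM + 0.1) from limma. At 4 h, RANKL against LPS gave -1.53 for Sav1, 1.08 for Lats2, -1.21 for Amotl2 and 0.62 for Nf2. At 3 d, RANKL against LPS gave -0.68 for Lats2 and 1.06 for Amotl1. From 4 h to 3 d of RANKL, Tead1 rose by 1.27 and Amotl1 by 1.71. From 4 h to 3 d of LPS, Lats2 rose by 1.77, Tead1 by 1.07 and Amotl1 by 0.87, and Sav1 changed by -1.08. No sample was tested as an outlier of its group, since groups of 3 are too small for that.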

How the results depend on the processing

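Of 1264 member values under the alternatives, 1185 kept their direction or, if uncalled, stayed uncalled, 49 lost a call, 30 gained one and 0 called values reversed. Uncalled values changed sign in 47 cases, 35 of them when a replicate was left out and 10 when samples were centred on the median gene. Under that centring, Tead2 and Amotl1 stood at 0.24 and 0.34 in LPS 4 h, Lats1 at -0.17 in RANKL 3 d and Nf2 and Lats1 at -0.08 and -0.47 in LPS 3 d against LPS 4 h.

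The number of the 9 genes called in RANKL 3 d (2) became 0 with a mean of at least 1 FPKM, since that filter removes Tead1 to Tead3 and Amotl1, and 1 with only the 2 groups fitted. In LPS 3 d (3) it became 1 with centring, with the stricter filter and with only 2 groups. In RANKL 3 d against LPS 3 d (2) it became 1 with FPKM rescaled to equal sums. In RANKL 3 d against RANKL 4 h (2) it became 0 with the stricter filter and 1 with only 2 groups. In LPS 3 d against LPS 4 h (4) it became 2 with centring, the stricter filter or a pseudocount of 1. In LPS 4 h and in RANKL 4 h against LPS 4 h, centring removed the calls of Nf2 and Lats2 and added Lats1. In LPS 4 h, Amotl2 was not called with no filter on low values (adjusted p = 0.0648 from limma). Nf2 was not called there with FPKM rescaled to equal sums (adjusted p = 0.0511). In RANKL 4 h against LPS 4 h, Nf2 lost its call in 10 of 18 alternatives. Leaving out single replicates gave 2 to 4 called genes in LPS 4 h and in RANKL 4 h against LPS 4 h, 0 to 3 in LPS 3 d and 2 to 4 in RANKL 3 d against RANKL 4 h.

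With the replicate block, no member lost a call. In a comparison where the numbers pair the samples, Tead3 gained a call in RANKL 4 h against LPS 4 h (0.80). In unpaired comparisons, where the samples share only a number, Tead3 gained one in LPS 3 d against LPS 4 h (0.80, adjusted p = 0.0380) and Nf2 in RANKL 3 d against LPS 3 d (0.62, adjusted p = 0.0385). The paralog ratios, tested by exact sign flips of 3 paired differences, cannot go below a permutation p of 0.25.

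Over all genes, the count in RANKL 4 h (14) became 3 without the variance trend, 0 with only 2 groups, 24 with the replicate block, 301 with unadjusted p and as few as 1 without a single replicate (RANKL 4 h replicate 2). In LPS 4 h 5650 became 3400 with centring, and in RANKL 4 h against LPS 4 h 5872 became 3485. Depth limits Tead2, Tead3 and above all Tead4, for which 1 to 9 fragments allow no comparison.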
